A study of Homo sapiens with 6 samples.

Results

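Neuroendocrine markers and lineage factors are a set of 9 genes by which pathologists and biologists recognise cells of neuroendocrine type: CHGA, CHGB, SYP, NCAM1, SNAP25, INSM1, NEUROD1, FOXA2 and SOX2. They were chosen by name, without use of their measured values but with earlier results of these data known. Their values were taken from probe sets that the platform annotation pairs with exactly 1 gene symbol. By that rule 8 of the 9 had a value, each from 1 probe set, among 18404 genes in all. NEUROD1, the gene of a neural basic helix-loop-helix factor, was not analysed here.

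The values came from 6 expression arrays, 1 for each RNA sample of PrEC, a line of immortalized but untransformed epithelial cells of the prostate. In 3 samples, named shPKCi, the cells carried a short hairpin RNA against PKCλ/ι, the atypical protein kinase C encoded by PRKCI. In the other 3, named shNT, they carried a hairpin of that name, which served as the reference. All cells grew in prostate epithelial growth medium and were collected 48 hours after plating, with no other treatment. The labels name 1 hairpin line on each side, so an effect of PRKCI and one of this particular hairpin line cannot be told apart. The series calls the 3 samples of a line biological replicates, and nothing says that they came from separate infections, so p-values measure the spread between these cultures. The title of the series links loss of PKCλ/ι with neuroendocrine prostate cancer, and the comparison shows whether the transcripts that mark this state differed in untransformed prostate epithelial cells that carry the hairpin.

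Neuroendocrine cells are scattered through the normal prostate epithelium and store peptides and amines in dense-core granules, which they release when stimulated. The chromogranins are packed in these granules, synaptophysin and SNAP25 belong to the vesicle and fusion machinery that these cells share with neurons, and NCAM1 is an adhesion molecule on their surface. INSM1 and NEUROD1 act in the differentiation of endocrine and neural cells, FOXA2 is a pioneer factor of endoderm, and SOX2 is a stem cell and neural factor. In the clinic, staining for several of these proteins marks prostate tumours that have turned neuroendocrine, often under anti-androgen treatment.

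Of the 8 measured genes, FOXA2 alone passed the test, and it was 1.32-fold higher in shPKCi. None was lower at an adjusted p under 0.05. That is 12.5% of the 8 higher and 0% lower, beside 9.55% of all genes higher and 8.95% lower in the same fit (limma on log2 intensities, Benjamini-Hochberg over 18404 genes). Members called in either direction stand beside 18.5% of all genes. The median log2 fold change of the 8 was -0.02, and that of all genes was -0.02. Over all genes 1758 were higher and 1648 lower, and after median centring of the arrays 2170 were higher and 1321 lower, FOXA2 among the higher. These counts do not set the 8 apart from the background. The number of arrays, 3 on either side, limits the precision of each value.

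The transcript under the hairpin was lower. PRKCI had intensities of 800.3, 810.2 and 753.8 in shPKCi and of 1635, 1428 and 1843 in shNT. All shPKCi arrays lay below all shNT arrays, with a log2 fold change of -1.05 (SE 0.11, limma adjusted p = 0.000279).

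**Figure D1:**
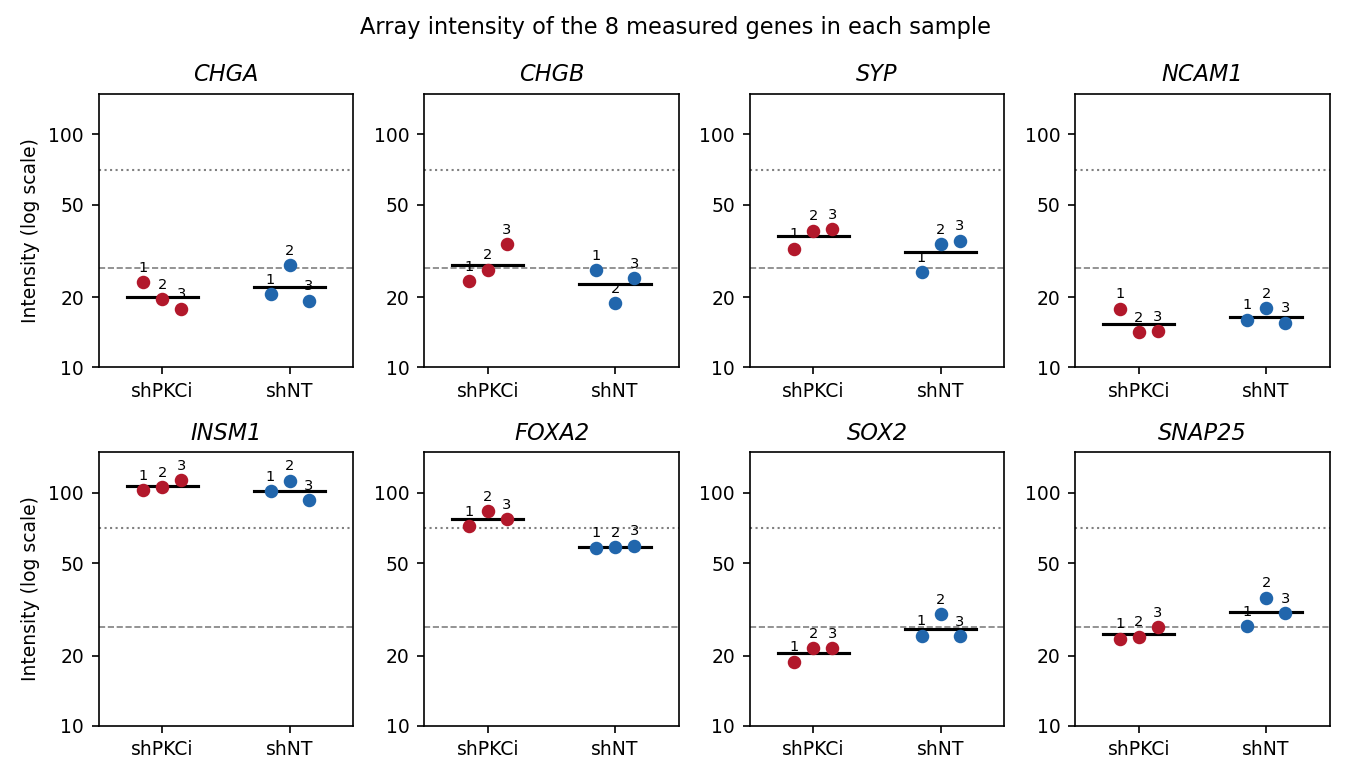
Intensity of each of the 8 genes by array on a log axis, shPKCi in red and shNT in blue, with replicate numbers beside the points and bars at the mean of the log2 values. The dashed and dotted grey lines mark the lower quartile and the median of all genes, averaged over the 6 arrays. CHGA, CHGB, NCAM1, SOX2 and SNAP25 lie near or below the dashed line, and FOXA2 and INSM1 lie highest.

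Of the 8 genes, 4 were dim, here meaning below the lower quartile of signal. Averaged over the 6 arrays, 4 of the 8 fell below the 25th percentile of all genes: NCAM1 at the 14.8th, CHGA at the 20.1th, SOX2 at the 21.9th and CHGB at the 23.4th. SNAP25 lay at the 25.7th, SYP at the 30.4th, FOXA2 at the 48.5th and INSM1 at the 60.4th. Because probe sets differ in how well they bind, a percentile places a probe set in the array's signal range and does not rank the transcripts against each other.

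The deposited values hold no detection call, so the low end of the arrays was read from genes that prostate epithelium is not known to use. A list of 23 measured genes restricted to other tissues, such as those of milk, sperm, heart muscle and liver proteins, had a median at the 24th percentile, and its 90th percentile stood at an intensity of 45.5. The means of 6 of the 8 genes lay below that intensity, and those of FOXA2 and INSM1 lay above it. The brightest gene of that list, CELA3B, lay at the 59.4th percentile, above FOXA2 and below INSM1. FOXA2 thus stood above the limit but within the range of the list. The 345 olfactory receptor genes had a median at the 9.9th percentile. Transcripts of CHGA, CHGB, SYP, NCAM1, SOX2 and SNAP25 therefore gave signals that these arrays do not separate from those of genes with no known use in this tissue. Few dim genes were called at all: 2.91% of genes below the 25th percentile passed the test, against 11.4% between the 25th and the 50th and 29.9% above.

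**Figure D2:**
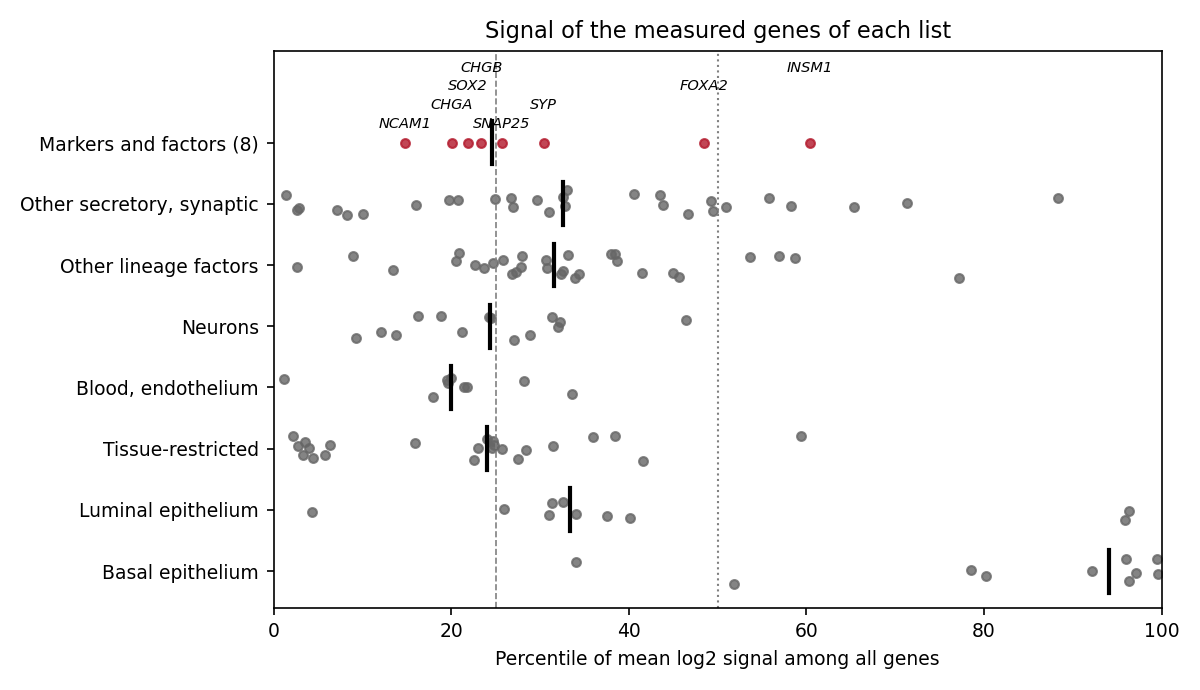
Percentile of mean log2 signal over the 6 arrays among all 18404 genes, for the measured genes of 8 lists. Each point is a gene, the black bar is the median of the list, and the grey lines stand at the 25th and 50th percentiles. The median of the 8 markers and factors lies at the 24.5th percentile, near that of the tissue-restricted genes at the 24th, and the basal epithelial genes at the 94.1th.

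The chromogranin transcripts did not pass. CHGA, which encodes the granule protein chromogranin A, had intensities of 23.18, 19.64 and 17.84 in shPKCi and of 20.57, 27.38 and 19.28 in shNT. The groups overlapped, and the highest value belonged to shNT replicate 2. The log2 fold change of CHGA was -0.14 (95% interval -0.48 to 0.20, limma adjusted p = 0.611), and it was 0.01 without that array. CHGB, the gene of chromogranin B, gave 23.47, 26.20 and 33.69 in shPKCi and 26.10, 18.85 and 24.09 in shNT. Here shPKCi replicate 3 was the highest and shNT replicate 2 the lowest, and the other arrays of both lines were mixed. Its log2 fold change was 0.27 (95% interval -0.09 to 0.63, adjusted p = 0.316), and it was 0.12 without shPKCi replicate 3 and 0.13 without shNT replicate 2.

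The promoter of CHGA holds a cyclic AMP response element, a site through which CREB-family factors drive this gene in neuroendocrine cells. The stretches of 150 bases before the start site of CHGA, SYP and SOX2 are printed as background for these genes, since the arrays measured RNA and carry no information on the promoters themselves. They are from RefSeq on GRCh38.p14, which held entries for 4 of the 9 genes, and run 5′ to 3′ on the strand of the gene. CHGA lies at chr14:92923000-92923149 on the plus strand, SYP at chrX:49200194-49200343 on the minus strand and SOX2 at chr3:181711775-181711924 on the plus strand. Capitals mark matches, on either strand, to the response element TGACGTCA or to CCAAT, a common promoter box, which share no overlap here.
CHGA: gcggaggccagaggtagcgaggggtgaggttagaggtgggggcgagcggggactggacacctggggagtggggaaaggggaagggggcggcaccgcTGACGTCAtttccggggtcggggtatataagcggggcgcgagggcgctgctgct
SYP: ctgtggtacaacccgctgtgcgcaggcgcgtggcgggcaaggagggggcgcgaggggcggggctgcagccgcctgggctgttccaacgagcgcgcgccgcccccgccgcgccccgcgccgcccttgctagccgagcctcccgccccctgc
SOX2: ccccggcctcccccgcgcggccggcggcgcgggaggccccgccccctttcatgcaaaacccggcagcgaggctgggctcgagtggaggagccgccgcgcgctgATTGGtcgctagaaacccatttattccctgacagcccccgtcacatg

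The response element stands 54 bases before the start of CHGA, and 1.4% of 35116 promoter windows of this length hold it. SOX2 has a CCAAT box, in reverse, 47 bases before its start, as do windows at 23.5% of all promoters in either orientation. SYP has neither of these letters in the window. The windows hold 13, 22 and 18 CpG pairs in CHGA, SYP and SOX2, where the median of all windows is 7.

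The vesicle and fusion genes gave no call. SYP, which encodes the vesicle membrane protein synaptophysin, had intensities of 32.31, 38.63 and 39.12 in shPKCi and of 25.55, 33.83 and 34.94 in shNT. Replicates 2 and 3 of shPKCi lay above every shNT array, while replicate 1 of shPKCi fell among them. The log2 fold change of SYP was 0.23 (95% interval -0.08 to 0.54, limma adjusted p = 0.321), and it was 0.09 without shNT replicate 1. SNAP25, the gene of a membrane-bound fusion protein of regulated secretion, gave 23.64, 24.13 and 26.54 in shPKCi and 26.75, 35.46 and 30.39 in shNT. The groups did not overlap, though the highest shPKCi array and the lowest shNT array were close. SNAP25 had a log2 fold change of -0.31 (95% interval -0.58 to -0.04, adjusted p = 0.114), which does not pass over all genes. Without shNT replicate 2 the difference was -0.20 (adjusted p = 0.194). For SNAP23, the counterpart of SNAP25 in most other cells, the log2 fold change was 0.15 (adjusted p = 0.608). That of SNAP23 ran from -0.05 without shNT replicate 2 to 0.30 without shNT replicate 1.

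NCAM1, the adhesion molecule known to pathologists as CD56, had the lowest percentile of the 8. Its intensities were 17.83, 14.12 and 14.26 in shPKCi and 15.98, 17.89 and 15.53 in shNT, with the groups overlapping. The log2 fold change was -0.10 (95% interval -0.37 to 0.17, limma adjusted p = 0.644). It ran from -0.21 without shPKCi replicate 1 to -0.04 without shNT replicate 2.

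Among the lineage factors, FOXA2 rose and the others did not pass. FOXA2 encodes a forkhead pioneer factor that opens chromatin in endoderm and is found in neuroendocrine prostate tumours. Its intensities were 72.13, 83.54 and 77.12 in shPKCi and 58.12, 58.55 and 59.30 in shNT. All 3 shPKCi arrays stood above all 3 shNT arrays, and the shNT arrays lay within a narrow range. Mean log2 signal was 6.28 ± 0.11 in shPKCi and 5.87 ± 0.01 in shNT (SD, n = 3 each), a fold of 1.32 (log2 fold change 0.40, 95% interval 0.19 to 0.62, limma adjusted p = 0.0174).

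The call of FOXA2 rests on few arrays. Leaving out shPKCi replicate 2 gave an adjusted p of 0.0939, leaving out shPKCi replicate 3 gave 0.0557 and leaving out shNT replicate 1 gave 0.0522, all above the threshold. In the 6 fits with 1 array left out the log2 fold change ran from 0.35 to 0.45. FOXA2 lay at the 48.5th percentile, a band of signal in which 11.4% of genes were called. A two-sided exact permutation test of the 6 samples gave p = 0.1, the smallest that 3 against 3 allow.

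The genes whose log2 values followed FOXA2 most closely over the 6 arrays were ZBTB24, STMN3 and CRY1, with Pearson correlations of 0.994, 0.993 and 0.992. The 6 arrays are those of the comparison itself, so any gene that differs between the lines gains likeness, and 314 genes had a correlation above 0.95. ZBTB24 and CRY1 rose by 0.61 and 0.44 on the log2 scale (limma adjusted p = 0.00351 and 0.0162), and STMN3 had 0.14 (adjusted p = 0.35).

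SOX2, the gene of an HMG-box factor of stem and neural cells, was lower in each shPKCi array than in any shNT array but did not pass. Its intensities were 18.80, 21.56 and 21.49 in shPKCi and 24.32, 30.16 and 24.20 in shNT. The highest value was again that of shNT replicate 2. The log2 fold change of SOX2 was -0.34 (95% interval -0.61 to -0.08, limma adjusted p = 0.0769), and -0.24 (adjusted p = 0.12) without that array. INSM1, the gene of a zinc-finger factor of endocrine differentiation, had the highest percentile of the 8 and overlapping groups. It gave 102.85, 105.70 and 113.29 in shPKCi and 101.96, 112.72 and 92.89 in shNT, a log2 fold change of 0.07 (95% interval -0.17 to 0.30, adjusted p = 0.734).

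**Figure D3:**
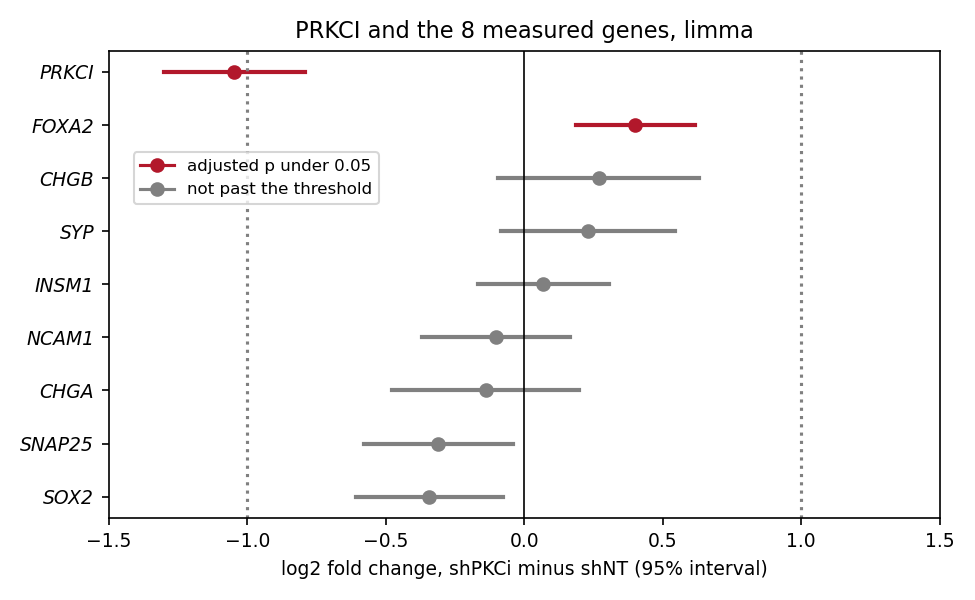
Log2 fold changes of shPKCi minus shNT with 95% intervals from limma, for PRKCI and the 8 genes ordered by size. PRKCI and FOXA2, in red, passed an adjusted p of 0.05, and dotted lines mark a 2-fold change either way. The interval of PRKCI spans the line of a 2-fold fall, and those of the 8 genes lie between both lines.

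The 95% intervals of the 8 genes reached no further down than -0.61 (SOX2) and no further up than 0.63 (CHGB), short of a 2-fold change in either direction on the scale of the arrays. Array signal near background compresses differences, so the change in a dim transcript can be larger than its interval here. Groups did not overlap in 1 gene upward (FOXA2) and in 2 downward (SOX2 and SNAP25), where 18% of all genes were separated upward and 17.8% downward. Among the arrays, that of shNT replicate 2 differed most from the rest. Its interquartile range of log2 values was 2.81, against 2.98 to 3.01 in the other 5, and its lower quartile was 28.32, against 25.65 to 26.58. That array also held the highest value of CHGA, NCAM1, SOX2 and SNAP25. Its part in these results beyond the values without it was not tested.

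Wider gene groups were read in the same way. The lists were chosen with earlier results of these data known, and their counts are descriptions, with no test of the list. Of all genes, 9.55% were higher and 8.95% lower, and 29.9% of those at or above the median signal were called. Of 29 other neuroendocrine secretory and synaptic genes, 4 fell, none rose and 25 did not pass, with a median log2 fold change of -0.04. The 4 make 13.8%, beside 8.95% of all genes lower. The largest fall was that of CPE, which encodes carboxypeptidase E, the enzyme that trims peptide hormones in secretory granules. CPE had intensities of 40.31, 39.72 and 45.38 in shPKCi and of 211.1, 145.9 and 203.1 in shNT, without overlap, and was 4.42-fold lower (log2 fold change -2.14, SE 0.15, limma adjusted p = 2.08e-05). ENO2, the gene of neuron-specific enolase, a glycolytic enzyme used as a serum marker of neuroendocrine tumours, was lower as well. It gave 47.49, 47.81 and 56.46 in shPKCi and 186.0, 178.1 and 185.7 in shNT (log2 fold change -1.86, adjusted p = 6.83e-06).

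VAMP2, a vesicle partner of SNAP25 in membrane fusion, fell by 0.61 on the log2 scale (limma adjusted p = 0.0117), and SV2A, a vesicle glycoprotein gene, fell by 0.57 (adjusted p = 0.0199). The mean signal of SV2A, at the 27th percentile, lay below the tissue-restricted limit at the 38.1th. The call of VAMP2 was lost without shPKCi replicate 2 (adjusted p = 0.0582), and that of SV2A without shPKCi replicate 1 (0.0838) or shNT replicate 3 (0.0643). CPE and ENO2 passed in each of the 6 fits with 1 array left out.

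None of 30 other neural and neuroendocrine lineage factors passed in either direction, beside 18.5% of all genes. The list's median signal percentile was 31.6, and 11.4% of genes between the 25th and the 50th percentile were called. Of the 30, 8 lay below the 25th percentile, where 2.91% of genes were called. The log2 fold changes of the 30 ran from -0.26 to 0.19 with a median of -0.04. In 21 of the 30 the mean signal was below the tissue-restricted limit of 45.5. In the 6 fits without 1 array their count of calls was also 0. Groups did not overlap in 1 gene upward and in 3 downward, where 18% and 17.8% of all genes were separated. The list holds the neurogenin genes, NKX2-1, POU3F2, ONECUT2, MYCN and DLL3, among others.

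Of 22 measured repressors and regulators of the neural programme, 1 rose, 4 fell and 17 did not pass. That is 4.55% higher and 18.2% lower, beside 9.55% and 8.95% of all genes, in a list whose median signal lay at the 89th percentile. REST, the repressor that keeps neuronal genes such as SNAP25 and SYP silent outside the nervous system, had intensities of 281.1, 302.4 and 287.2 in shPKCi and of 293.5, 297.3 and 325.7 in shNT. The groups of REST overlapped, with a log2 fold change of -0.07 (SE 0.09, limma adjusted p = 0.681). NOTCH1, the receptor of a pathway known to hold back neuroendocrine differentiation, was lower in all 3 shPKCi arrays, at 57.11, 55.55 and 56.09, against 107.3, 139.1 and 107.8 in shNT. It fell by 1.06 on the log2 scale (adjusted p = 0.000338), and it passed with any array left out.

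NOTCH2 fell by 0.35 (limma adjusted p = 0.025), HES1, a repressor gene downstream of Notch, fell by 0.41 (adjusted p = 0.0339), and CBX5, the gene of heterochromatin protein HP1 alpha, fell by 0.38 (adjusted p = 0.0214). With 1 array left out, NOTCH2 passed in 2 of 6 fits, CBX5 in 3 and HES1 in 1, that without shNT replicate 1. HES1 lies outside the rule for named genes and was added after its value was seen. AURKA, a mitotic kinase gene often raised in neuroendocrine prostate cancer, was 1.75-fold higher, at 883.4, 851.9 and 810.7 in shPKCi and 551.8, 374.2 and 549.5 in shNT (adjusted p = 0.00507). In this list 1 gene fell when any single shPKCi array was left out, and 2 fell when shNT replicate 3 was. With shNT replicate 2 left out, 2 genes rose.

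The relatives of FOXA2 and SOX2 were also mostly without a call. FOXA1, the luminal pioneer factor of the prostate, had 82.30, 74.97 and 75.25 in shPKCi and 62.78, 53.24 and 66.67 in shNT, without overlap, and a log2 fold change of 0.35 (limma adjusted p = 0.0549). FOXA3 had -0.21 (adjusted p = 0.367), and SOX9, a factor of prostate epithelial development, had -0.02 (adjusted p = 0.922). Of 16 listed genes of the FOXA and SOX families beside FOXA2 and SOX2, SOX15 and SOX7 rose and none fell. That is 12.5% higher and 0% lower, beside 9.55% and 8.95% of all genes. The 16 leave out SOX1, SOX3, SOX11 and SOX21, which were counted among the lineage factors above and did not pass. SOX15, known from muscle progenitors of the mouse, rose by 0.91 (adjusted p = 0.000737). SOX7 rose by 0.31 (adjusted p = 0.0446), a call that was lost without any single array except shNT replicate 2.

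Further SNARE and granule genes, listed as in wider use, went both ways. Of 19 measured genes, STX2 rose, and SYTL2, VAMP8 and RAB27B fell, with a median log2 fold change of -0.02. SYTL2, whose product tethers granules through RAB27, fell by 1.40 (limma adjusted p = 5.29e-05), and VAMP8 and RAB27B by 0.43 and 0.41 (adjusted p = 0.0175 and 0.023). STX2, a syntaxin gene, rose by 0.40 (adjusted p = 0.0134). With 1 array left out, SYTL2 passed in 6 of 6 fits, STX2 in 4, VAMP8 in 3 and RAB27B in 2. The number that fell was 1 without shPKCi replicate 1 or shPKCi replicate 2, and the number that rose was 0 in the same fits. The share that fell was 15.8% and the share that rose 5.26%, beside 8.95% and 9.55% of all genes. The list's median signal percentile was 78.6, and 29.9% of genes at or above the median signal were called.

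**Figure D4:**
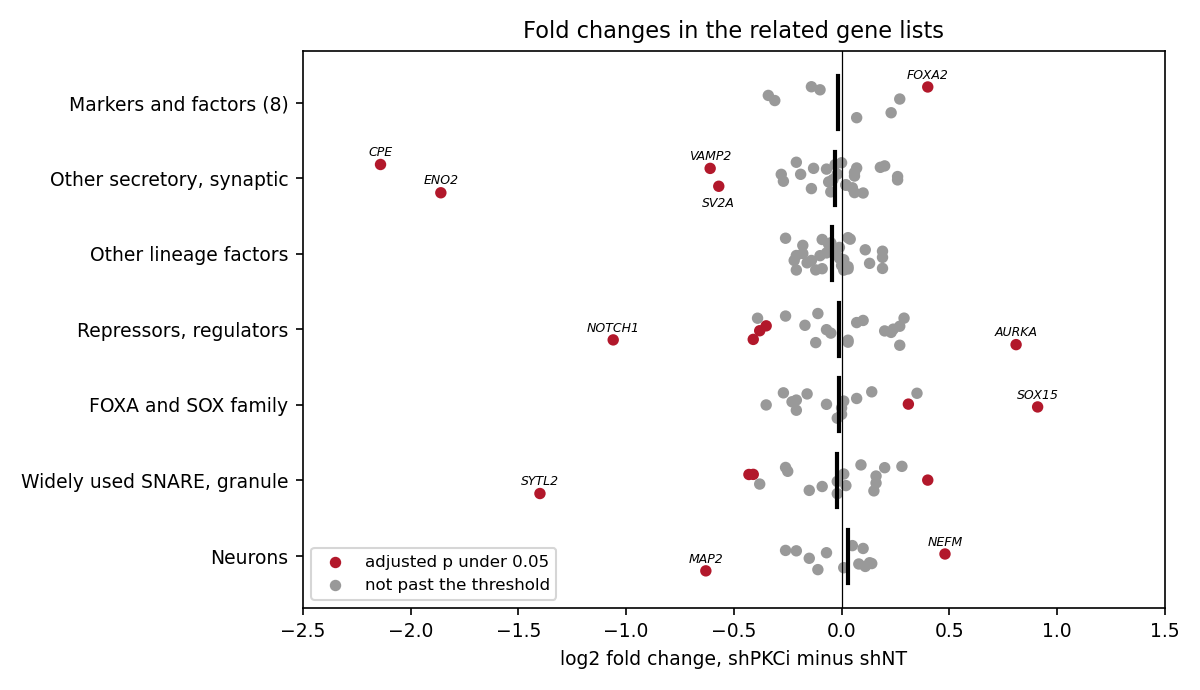
Log2 fold changes of shPKCi minus shNT for the measured genes of 7 lists, 1 point per gene, with the median of each list as a black bar. Red points passed an adjusted p of 0.05. The medians lie between -0.04 and 0.03, and the points furthest out are CPE, ENO2, SYTL2 and NOTCH1 on the lower side and SOX15 and AURKA on the higher side.

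Most basal epithelial genes and the luminal keratins gave high signal in both lines. Of 10 basal epithelial genes, KRT5 lay at the 99.6th and ITGA6 at the 99.5th percentile, and the list's summed intensity ran from 10955 to 11160 in shPKCi and from 13543 to 15073 in shNT. In this list 6 genes fell and none rose, which is 60% lower beside 8.95% of all genes, and 3 fell without shPKCi replicate 2. The list's median signal percentile was 94.1, and 29.9% of genes at or above the median signal were called in either direction. DSG3, a desmosomal cadherin gene, fell by 1.42 on the log2 scale (limma adjusted p = 1.79e-05), the adhesion genes DSC3 and CDH3 fell by 1.02 and 0.62, and the integrin gene ITGB4 fell by 0.45. The call of ITGB4 was lost in 2 of the 6 fits with an array removed, at 0.0839 (shPKCi replicate 2 removed) and 0.0575 (shPKCi replicate 3 removed). The luminal keratins KRT8 and KRT18 lay at the 95.9th and 96.3th percentile, while the secretory luminal gene KLK3, which encodes prostate-specific antigen, lay at the 32.6th. The means of 7 of the 10 luminal genes lay below the tissue-restricted limit. Of 10 luminal genes none rose, beside 9.55% of all genes, and 1 fell, which is 10% beside 8.95%. It was ACP3, the gene of prostatic acid phosphatase, lower by 1.02 (limma adjusted p = 0.00127), a call kept with any array left out. The mean signal of ACP3, at the 31.4th percentile, lay below the tissue-restricted limit at the 38.1th. Without shNT replicate 2 the number of luminal genes that rose was 2. Summed luminal intensities ran from 2765 to 2870 in shPKCi and from 2042 to 2758 in shNT, and KRT8 and KRT18, the brightest of the list, did not pass (adjusted p = 0.0624 and 0.218).

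Of 14 neuron markers, 8 lay below the 25th percentile and 13 had a mean below the tissue-restricted limit, and their summed intensity ran from 371 to 401 in shPKCi and from 373 to 402 in shNT. NEFM, a neurofilament gene, rose by 0.48 (limma adjusted p = 0.026) and MAP2, a gene of dendritic microtubules, fell by 0.63 (adjusted p = 0.00875), both at about the 32nd percentile of signal. Of the 14, 7.14% rose and 7.14% fell, beside 9.55% and 8.95% of all genes. NEFM passed in 2 of the 6 fits with 1 array left out, and MAP2 in 6. Blood and endothelial genes had no call among 9, beside 18.5% of all genes, and all 9 lay below the tissue-restricted limit. Of these 9, 7 lay below the 25th percentile, where 2.91% of genes were called. Of 10 fibroblast and stroma genes none rose, beside 9.55% of all genes, and 1 fell, which is 10% beside 8.95%. It was COL1A1, a collagen chain gene, lower by 0.49 (limma adjusted p = 0.0244). Its call was likewise lost with shPKCi replicate 2 removed, at 0.0737, and with shPKCi replicate 3 removed, at 0.095. The list's summed intensity ran from 441 to 461 in shPKCi and from 494 to 595 in shNT, and its part in the results was not tested. RNA of a bulk culture does not tell fewer cells of a type from less RNA per cell.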

How the data were processed

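RNA of 6 PrEC samples (3 shPKCi, 3 shNT, grouped by title) was hybridised to 1 array each. The deposited values are intensities on a linear scale for 32321 probe sets, and RMA is named in the submitters' processing notes. No version of it and no genome build are given in the sources used here. The intensities were transformed to log2. The platform annotation gave 1 gene symbol to 19158 probe sets, several to 1388, and did not list 11775. Of the 19158, 19128 had an Entrez identifier in the RefSeq table. Where a gene had more than 1 probe set (637 of 18404 genes), that with the highest mean was used. No filter on low values was applied.

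The lines were compared across all genes by limma 3.58.1 under R 4.3.3 (a linear model per gene with moderated variance), without covariates. Adjustment was by Benjamini-Hochberg over the 18404 genes, at a threshold of 0.05. The median standard error was 0.11. In 10 simulated data sets of the 18404 genes, 48.1% of genes changed by 0.5 on the log2 scale and 99.7% of those changed by 1 were recovered. Noise was normal, and over the 10 sets 670 genes were changed by each of these sizes, against 3406 called in the data. The adjustment depends on the share of changed genes, so these rates describe the simulation and not this comparison. A gene is called dim here below the 25th percentile of mean log2 signal.

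The members, lists and tests were chosen with earlier results of these data known. The rule for named genes took PRKCI, the 9 members, up to 4 genes with the smallest adjusted p among those that passed in each list, 3 genes most correlated with each member that passed, and counterparts of the members (FOXA1, FOXA3, SOX9, SNAP23 and REST among them). A further item is not reported here. Percentiles and levels of further list genes are given as descriptions. Same-numbered replicates had correlations of deviations of 0.12, -0.06 and -0.18, and those of unlike number ran from -0.17 to 0.21. These values show no pairing by number but cannot exclude it, and the labels do not say whether cultures were paired.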

Additional observations from a re-analysis of the deposited data

How the results depend on the processing

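Beside the fits with 1 array left out, 9 alternatives tested FOXA2, and it passed under each: the replicate block (limma adjusted p = 0.0398), median centring, cyclic loess, a filter at the lower quartile of signal, averaged or single probe sets, a trended robust variance, array weights and 16 added before log2 (0.00423 to 0.0398). FOXA2 has 1 probe set, so the averaged and single probe set fits used the same FOXA2 values and are no separate check of it. A filter at the median signal removed FOXA2, which left 0 members higher. The replicate block changed no call among the members. With 1 array of each line per block it cannot change a log2 fold change, so the equal fold changes are no check. Whether same-numbered replicates were paired is not known. With 1 array left out, FOXA2 ran from 0.35 to 0.45 and members higher from 0 to 1. CHGA ran from -0.24 to 0.01, reversing to 0.0131 without shNT replicate 2, and INSM1 from -1e-04, without shNT replicate 3, to 0.14. The cause was not tested beyond these values. Genes higher ran from 997 to 1935 and genes lower from 1048 to 1959 when 1 array was left out. The lowest counts came without shPKCi replicate 2 and the highest without shNT replicate 2. PRKCI passed throughout, and no member was lower under any alternative run. The counts of the wider lists with 1 array left out were added after seeing the data. Signal near the low end limits what CHGA, CHGB, SYP, NCAM1, SOX2 and SNAP25 can show.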
